A study of Mus musculus with 8 samples.

Results

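Transcripts of genes that build the centriole and the centrosome were compared between control and mutant skin epithelium of the mouse. The members are set by gene symbol, and this choice was made with earlier results of these data known. They are the 29 listed symbols that start with Cep and a number, with Cep290 left out, and 10 further genes, namely Plk4, Stil, Sass6, Cenpj, Pcm1, Ofd1, Cntrob, Poc1a, Poc1b and Poc5. This gives 39 members of 23432 gene symbols, and all 39 passed the filter on low counts in both experiments. The row listed as Cep110 is the gene that GENCODE M21 calls Cntrl, which encodes centriolin. At E16.5, epithelial cells of the back skin that carried the K14-H2BGFP reporter were sorted by FACS, giving 2 control and 2 MOF cKO libraries (genotype MOFfl/fl/K14Cre), in which Krt14-driven Cre deletes Kat8, the gene of the histone H4 lysine 16 acetyltransferase MOF, in the epithelium and not in the dermis. At P0.5, whole epidermis was separated from the dermis with Dispase and lysed, giving 2 control and 2 Kansl1 cKO libraries (genotype Kansl1fl/fl/K14Cre), in which the same Cre removes an exon of Kansl1, a scaffold subunit of the NSL complex that contains MOF. The controls were littermates described only as control, on a mixed C57Bl/6J and CD-1 background with both sexes used. The experiments share no library, and stage, isolation and deleted gene cannot be told apart between them.

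The centrosome is a pair of centrioles held in pericentriolar material, from which microtubules grow. A new centriole forms beside each old one in every cell cycle, starting from the kinase Plk4 and the cartwheel proteins Stil and Sass6. The older centriole carries distal and subdistal appendages, and in cells outside mitosis it can dock at the membrane and become the basal body of the primary cilium, which epidermal and hair follicle progenitors carry and which Hedgehog signalling needs. In the stratifying epidermis centrosomes also set the orientation of the spindle.

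The 4 libraries at E16.5 held between 22484018 and 27561688 counts on genes and the 4 at P0.5 between 9108709 and 19774643. Levels are given in CPM, read counts relative to the TMM-scaled library size, and 1 count stood for 0.0326 to 0.0502 CPM at E16.5 and for 0.0484 to 0.115 CPM at P0.5. The members had between 26 and 11754 counts in a library at E16.5 and between 18 and 2989 at P0.5. Kat8 was at 14.5 and 14.7 CPM in the E16.5 control libraries and at 12.4 and 13.9 CPM in the MOF cKO libraries, a difference that was not called (log2 fold change -0.14, edgeR adjusted p = 0.554). Kansl1 was at 40.7 and 48.2 CPM in the P0.5 control libraries and at 31.4 and 30.6 CPM in the Kansl1 cKO libraries (log2 fold change -0.52, edgeR adjusted p = 0.242). Counts of a whole gene do not resolve the deleted exons, so neither level checks the labels. Markers of the labelled epithelium were present, as 8 genes such as Krt5 and Krt14 summed to between 30670 and 37840 CPM at E16.5 and to between 17170 and 18930 CPM at P0.5.

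In MOF cKO epithelium at E16.5, centriole genes were mostly lower. Of the 39 members, 13 were called lower and 1, Cep170b, was called higher, where a call needs a change of more than 1.5-fold and an adjusted p not above 0.01 in edgeR's quasi-likelihood test over all genes. The members called lower are 33.3% of the members, where 9.59% of the 13956 genes tested were called lower, and the 1 member called higher is 2.56% of the members, where 10% of all genes were called higher. The log2 fold change was below 0 for 36 of the 39 members, and its median was -0.66 over the members and -0.02 over all genes tested. For 32 members each mutant library was lower than each control library, which is the case for 37.7% of all genes tested, and above them for 2 members, Cep57 and Cep170b, which is the case for 34.9% of all genes. The genotypes overlapped for 5 members, Cep350, Cep63, Cep95, Pcm1 and Stil. Sums over the sorted cells are bulk measurements, in which fewer cells of a type and less RNA per cell cannot be told apart. The size of the fall differed widely among the called members, from 1.62-fold for Cntrob to 6.54-fold for Cep97.

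**Figure D1:**
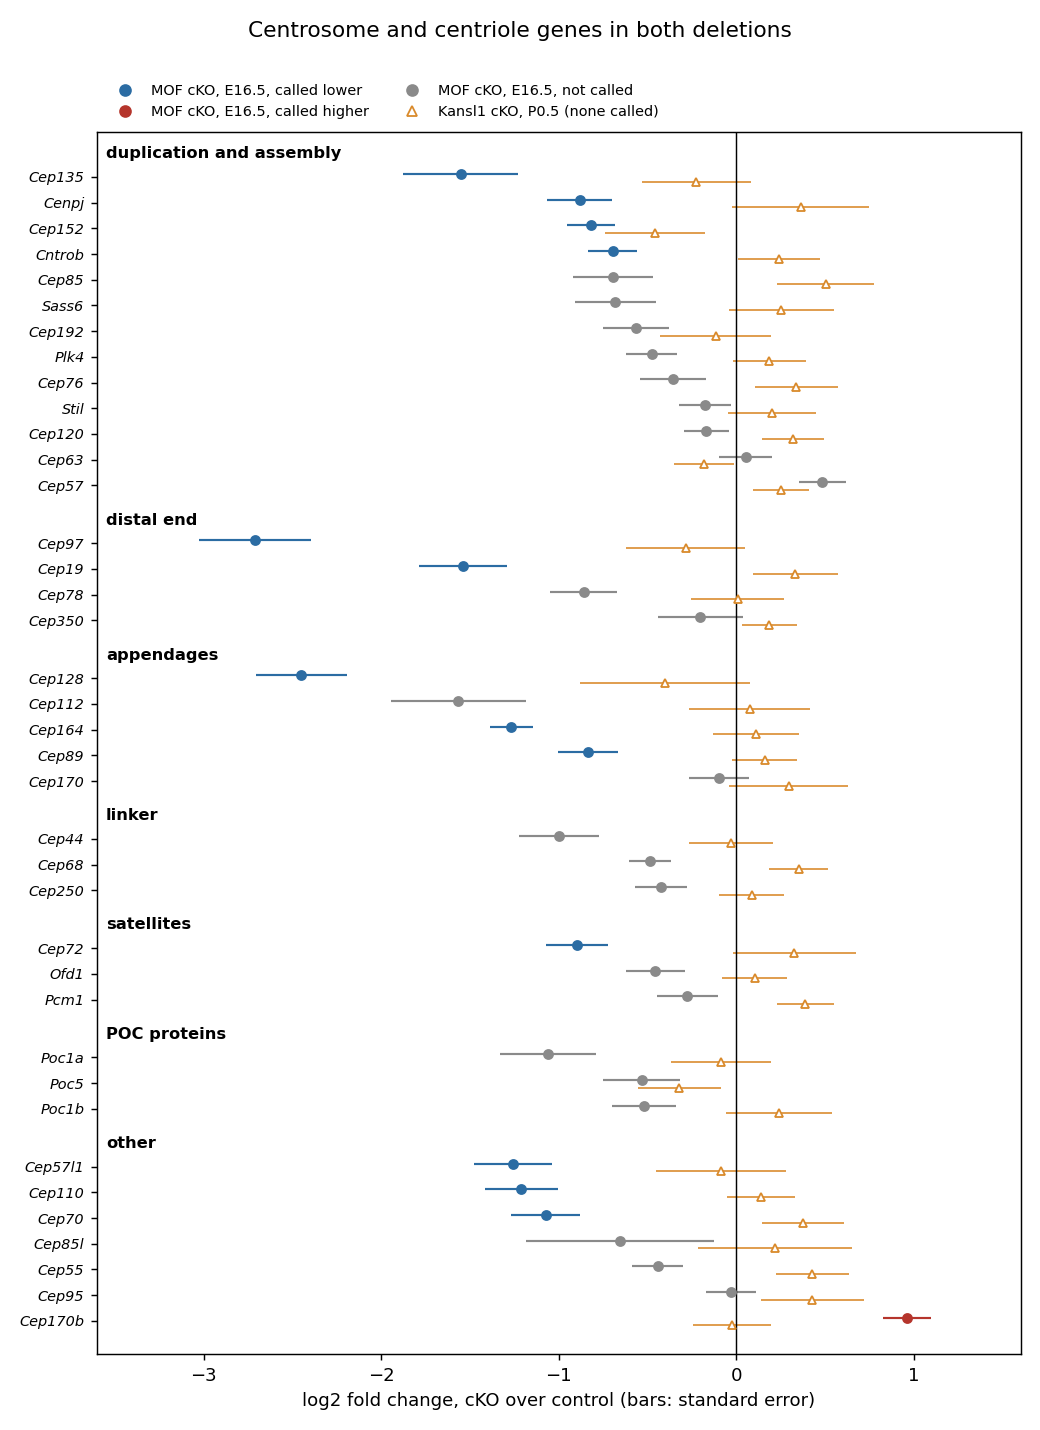
Log2 fold change of mutant over control with its standard error for 38 of the 39 members, grouped by role, at E16.5 (circles, MOF cKO) and at P0.5 (open triangles, Kansl1 cKO). The circles of 35 of these 38 lie left of 0 and reach -2.71 for Cep97, whereas the triangles lie between -0.46 and 0.50 and 27 of them are right of 0.

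At the distal end of the centriole, where a cap of Cep97 and its partner CP110 blocks the growth of a cilium until it is removed, 2 of 5 members were called lower. Cep97 was at 20.4 and 25.2 CPM in the control libraries and at 2.36 and 4.53 CPM in the MOF cKO libraries, and both mutant libraries lay far below both controls. Its log2 fold change was -2.71 ± 0.31 (SE, adjusted p = 0.001 by edgeR), the largest fall of any member. Cep19, which brings intraflagellar transport proteins to the basal body at the start of ciliogenesis, was at 11.8 and 11.5 CPM in the controls and at 4.22 and 3.81 CPM in MOF cKO, and the replicates of each genotype lay close together. Its log2 fold change was -1.54 ± 0.25 (adjusted p = 0.0032 by edgeR). Both calls stood when any 1 of the 4 libraries was left out. Cep78, a centriole protein of the same region, lay just outside the threshold, with 20.5 and 21.3 CPM against 10.1 and 12.9 CPM. Its log2 change was -0.86, with an adjusted p of 0.0107 by edgeR and of 0.00467 by DESeq2, which called it lower. Cep350 overlapped between the genotypes, with 82.2 and 69.2 CPM in the controls and 83.3 and 48.3 CPM in the mutant.

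Among the appendage genes 3 of 5 members were called lower. Cep164, the distal appendage protein that recruits the kinase Ttbk2 and anchors the older centriole at the membrane, was at 91.2 and 102 CPM in the controls and at 39.4 and 40.9 CPM in MOF cKO. Its log2 fold change was -1.27 ± 0.12 (adjusted p = 0.000602 by edgeR, the lowest among the members), and the genotypes lay far apart relative to the spread of their libraries. Cep89, a second distal appendage protein, fell from 35.3 and 40.7 CPM to 18.8 and 23.7 CPM (log2 fold change -0.83 ± 0.17, edgeR adjusted p = 0.00761). The call on Cep89 was lost without control replicate 2 (adjusted p = 0.0154 by edgeR) and without MOF cKO replicate 1 (0.0215). Cep128, which belongs to the subdistal appendages, had 21.8 and 16.2 CPM in the controls and only 3.87 and 3.09 CPM in the mutant. The control libraries of Cep128 differed from each other by more than the mutant libraries did, yet both stayed well above them. The log2 fold change was -2.45 ± 0.26 (adjusted p = 0.000762 by edgeR), and the call stood when any 1 library was left out, as did that on Cep164. Cep112 had a fold change as large as that of Cep135 below but rests on fewer counts, with 4.93 and 5.27 CPM in the controls and 1.66 and 1.78 CPM in MOF cKO. It was not called by edgeR (log2 fold change -1.57 ± 0.38, adjusted p = 0.0156) but was called lower by DESeq2 (adjusted p = 0.00807). Cep170, a subdistal appendage protein, had a log2 fold change of -0.10.

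The sequences around the start sites of Cep97, Cep128, Cep19 and Cep164 are shown because these genes are 4 of the 5 members with the largest called falls and each of their windows holds the 6 letters GTTGCC, the core that RFX transcription factors bind in promoters of ciliary genes. The windows come from RefSeq on GRCm38.p6, run 5′ to 3′ on the strand of the gene and span 250 bases before to 50 bases after the start site, and capitals mark the match, written GGCAAC where it lies on the other strand. Positions of a match give its first base relative to the start site.
Cep97, chr16:55934799-55935098, minus strand, match at +24: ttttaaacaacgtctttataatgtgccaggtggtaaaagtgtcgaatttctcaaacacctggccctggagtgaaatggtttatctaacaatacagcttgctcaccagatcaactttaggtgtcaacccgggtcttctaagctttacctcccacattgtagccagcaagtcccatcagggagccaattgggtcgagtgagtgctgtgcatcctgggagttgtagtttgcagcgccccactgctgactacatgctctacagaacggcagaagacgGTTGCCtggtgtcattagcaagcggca
Cep128, chr12:91384360-91384659, minus strand, match at +26: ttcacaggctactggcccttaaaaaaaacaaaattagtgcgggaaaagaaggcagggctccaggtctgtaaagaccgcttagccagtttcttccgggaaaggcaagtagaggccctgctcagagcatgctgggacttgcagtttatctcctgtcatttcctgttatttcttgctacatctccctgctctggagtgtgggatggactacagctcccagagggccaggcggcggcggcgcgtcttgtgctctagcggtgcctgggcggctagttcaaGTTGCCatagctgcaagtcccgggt
Cep19, chr16:32099539-32099838, plus strand, match at +23: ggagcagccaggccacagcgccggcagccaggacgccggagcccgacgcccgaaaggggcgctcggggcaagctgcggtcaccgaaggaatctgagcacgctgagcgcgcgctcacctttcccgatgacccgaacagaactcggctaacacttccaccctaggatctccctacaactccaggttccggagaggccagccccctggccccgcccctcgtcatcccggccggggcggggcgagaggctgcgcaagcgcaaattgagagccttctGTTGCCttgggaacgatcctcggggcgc
Cep164, chr9:45828614-45828913, minus strand, match at +36 on the other strand: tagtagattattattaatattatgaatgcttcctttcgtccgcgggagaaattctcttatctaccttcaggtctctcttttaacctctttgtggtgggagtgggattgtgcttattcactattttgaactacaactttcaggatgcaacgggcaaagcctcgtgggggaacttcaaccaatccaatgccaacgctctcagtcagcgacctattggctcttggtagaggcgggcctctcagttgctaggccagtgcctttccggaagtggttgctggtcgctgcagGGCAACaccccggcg
In all 4 windows the match lies within the transcribed first bases, from 23 to 36 bases after the start.

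A window was given for 31 of the 39 members, and not for 8 members, among them Cep350, Cntrob, Cep192, Cep76, Cep120, Cep110 and Pcm1. The letters GTTGCC, searched on both strands, stood in the windows of 7 of the 31 members (22.6%), in 14.6% of the genes tested that have a window, in 18.2% of the genes called lower and in 12.5% of all windows. By call, 4 of the 11 members called lower that have a window held a match (36.4%), and 3 of the 20 others (15.0%). All 5 members with the largest called falls have a window, and of these Cep135 alone held no match, while the 6 other called members with a window held none. The 3 further members with a match were Cep112, at -76, Cep170b, at -179, and Cep57, whose alternative start sites put matches at several positions. Cep57 and Cep170b are the 2 members whose mutant libraries both lay above the controls, so matches were not confined to members that fell. The RefSeq window of Cep170b, chr12:112721924-112722223, lies downstream of the GENCODE start of the gene at 112720455. For 26 of the 31 members the bases just after a RefSeq start site were found in a GENCODE transcript of the gene. The median log2 fold change in MOF cKO was -1.54 over the 7 members with a match and -0.67 over the 24 with a window and none, and in Kansl1 cKO it was 0.07 and 0.19. These groups were compared after the values were seen and hold few genes, and a match of 6 letters is a description of the sequence and not a bound site. Cell cycle motifs were searched in the same way. The E2F-type letters TTCCCGC stood in the windows of 9 members (29.0%), Plk4, Stil and Cep152 among them, against 9.69% of the genes tested, and in 27.3% of the called members. The letters TTTGAA of the cell cycle homology region stood in 29.0% of the members' windows and in 14.1% of those of the genes tested. The RFX genes themselves were measured: of 7 listed genes (6 of the Rfx family, and Foxj1) 5 had enough counts to be tested, Rfx1 was called higher (log2 fold change 0.64, edgeR adjusted p = 0.0097), and Rfx2, Rfx3, Rfx5 and Rfx7 had log2 fold changes between -0.32 and 0.10 and were not called.

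**Figure D2:**
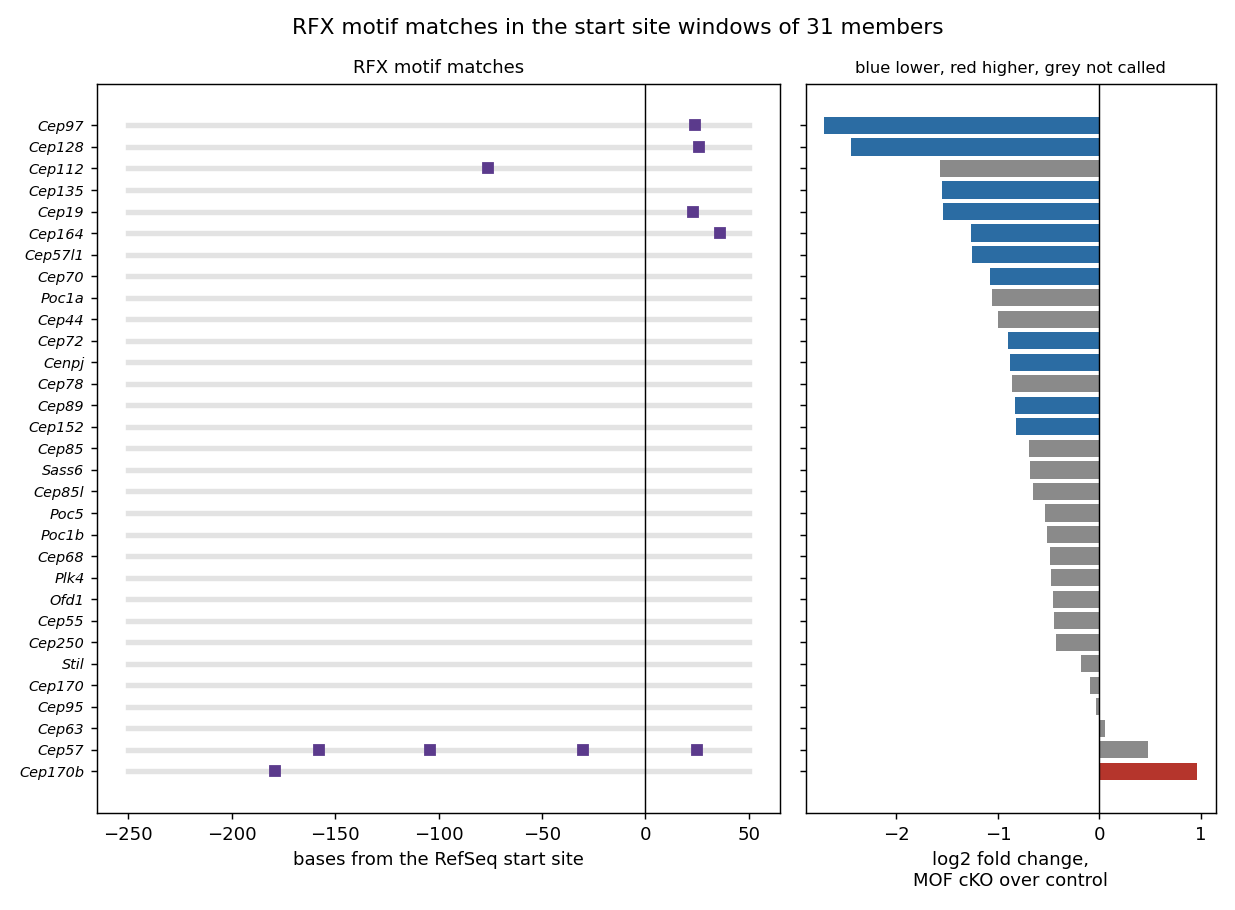
Left, position of each RFX motif match in bases from the RefSeq start site for the 31 members with a window (grey lines, 250 bases before to 50 after), ordered by their change in MOF cKO. Right, log2 fold change of MOF cKO over control, in blue for members called lower, red for the 1 called higher and grey for those not called. The matches of Cep97, Cep128, Cep19 and Cep164 lie from 23 to 36 bases after the start, as does 1 match of Cep57, at +25. Cep57 and Cep170b are the 2 members at the other end of the order.

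Of the 13 members for centriole duplication and assembly 4 were called lower (30.8%), where 33.3% of all members and 9.59% of all genes tested were. Their median log2 fold change was -0.57, against -0.66 over all members. The kinase Plk4, which starts duplication, was at 63.8 and 52.0 CPM in the controls and at 39.4 and 43.9 CPM in MOF cKO, and its log2 fold change of -0.48 ± 0.14 was not called (edgeR adjusted p = 0.0349). Stil, which Plk4 phosphorylates, overlapped between the genotypes, with 44.3 and 37.2 CPM against 38.1 and 34.0 CPM. Sass6, the subunit of the cartwheel, was at 21.4 and 14.4 CPM in the controls and at 11.4 and 10.9 CPM in MOF cKO (log2 fold change -0.68, edgeR adjusted p = 0.0504, and 0.00911 without control replicate 2). None of these 3 genes was called by edgeR or DESeq2, and Plk4 alone of them was under an adjusted p of 0.05. Cep152, which recruits Plk4 to the older centriole, had 35.1 and 35.8 CPM in the controls and 20.2 and 19.9 CPM in the mutant (log2 fold change -0.82 ± 0.14, edgeR adjusted p = 0.00364). Replicates of Cep152 agreed closely in each genotype, and its call stood when any 1 library was left out.

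Cep135, which links the cartwheel to the microtubule wall, had the largest change of this group, from 14.7 and 11.2 CPM to 5.62 and 3.26 CPM (log2 fold change -1.55 ± 0.32, edgeR adjusted p = 0.00894). Cenpj, also called CPAP, sets the length of the centriole and went from 22.5 and 19.7 CPM to 12.4 and 10.5 CPM (log2 fold change -0.88 ± 0.18, edgeR adjusted p = 0.00881). Cntrob, encoding centrobin of the daughter centriole, went from 54.7 and 64.8 CPM to 34.7 and 39.0 CPM (log2 fold change -0.70 ± 0.14, edgeR adjusted p = 0.00754). In all 3 both mutant libraries lay below both controls, but the calls were close to the threshold. Without control replicate 1 the edgeR adjusted p was 0.0189 for Cep135 and 0.0322 for Cenpj, and without MOF cKO replicate 2 it was 0.0123 and 0.0246. For Cntrob it was 0.0309 without control replicate 2 and 0.0251 without MOF cKO replicate 1. Cep57, a pericentriolar protein that works with Cep63, was above the controls in both mutant libraries, with 61.0 and 58.9 CPM against 46.6 and 39.1 CPM, and was not called (log2 fold change 0.48, edgeR adjusted p = 0.024). The remaining 5 members of the group, Cep63, Cep76, Cep85, Cep120 and Cep192, were not called and had log2 fold changes between -0.69 and 0.05.

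Centriolar satellites, granules that carry proteins to the centrosome along microtubules, had 1 of 3 members called. Cep72, which binds the satellite scaffold, was at 18.4 and 19.1 CPM in the controls and at 10.04 and 10.1 CPM in MOF cKO, with close replicates in both genotypes (log2 fold change -0.90 ± 0.17, edgeR adjusted p = 0.00678). The call on Cep72 was lost whichever of the 4 libraries was left out, at adjusted p values from 0.0134 to 0.0207 by edgeR. Pcm1, the scaffold of the satellites, overlapped between the genotypes, with 138 and 110 CPM in the controls and 117 and 87.9 CPM in MOF cKO. Ofd1, whose loss from satellites accompanies the growth of cilia, was at 22.1 and 21.6 CPM against 17.2 and 14.6 CPM and was not called (log2 fold change -0.46 ± 0.17, edgeR adjusted p = 0.0642).

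None of the 3 POC genes, whose proteins line the wall and lumen of the centriole, was called by edgeR, and DESeq2 called 1 of them, Poc1a. All 3 passed an unadjusted p of 0.05 by edgeR, as did 6820 of the 13956 genes tested. Poc1a was at 17.3 and 18.3 CPM in the controls and at 10.8 and 6.31 CPM in MOF cKO (log2 fold change -1.06 ± 0.27, edgeR adjusted p = 0.0186). Its 2 mutant libraries differed from each other, and without MOF cKO replicate 1 the adjusted p was 0.00255 by edgeR. Poc1b, the paralogue of Poc1a, had 24.1 and 20.5 CPM against 16.9 and 14.2 CPM (log2 fold change -0.52, edgeR adjusted p = 0.054). Poc5, which binds centrin in the lumen, had 23.6 and 22.0 CPM against 12.6 and 18.8 CPM (log2 fold change -0.53, edgeR adjusted p = 0.0879). In all 3 each mutant library lay below each control library, which is the case for 37.7% of all genes tested. The linker genes, whose products tie the centriole pair together between divisions, likewise had 0 of 3 called by edgeR, with all 3 under an unadjusted p of 0.05 and with 1, Cep44, called by DESeq2. Cep44 lay just outside the threshold, at 17.3 and 15.0 CPM against 9.29 and 6.90 CPM (log2 fold change -0.999, edgeR adjusted p = 0.0119, which was 0.00863 without control replicate 2 and 0.00668 without MOF cKO replicate 1), and Cep68 and Cep250 had log2 fold changes of -0.49 and -0.43.

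Of the 7 members not placed in the groups above, 3 were called lower and 1 higher. Cep110, encoding the maternal centriole protein centriolin that also acts at the end of cell division, was at 81.3 and 67.9 CPM in the controls and at 38.9 and 25.6 CPM in MOF cKO (log2 fold change -1.21 ± 0.21, edgeR adjusted p = 0.004). Cep57l1, a paralogue of Cep57, went from 13.8 and 12.9 CPM to 5.62 and 5.51 CPM (log2 fold change -1.26 ± 0.22, edgeR adjusted p = 0.00443, and 0.0149 without control replicate 1). The paralogues thus lay on opposite sides of 0, Cep57l1 below both controls and Cep57 above. Cep70, which binds gamma-tubulin and microtubules, went from 23.6 and 22.6 CPM to 12.5 and 9.49 CPM (log2 fold change -1.08 ± 0.19, edgeR adjusted p = 0.00498, and 0.0108 without MOF cKO replicate 2). Cep170b, a microtubule-binding relative of Cep170, was at 217 and 248 CPM in the controls and at 408 and 498 CPM in MOF cKO, and rose 1.95-fold (log2 fold change 0.96 ± 0.13, edgeR adjusted p = 0.00188). It had the highest level per kilobase of the members in the control groups and was the 1 member called higher, and its call, like that on Cep110, stood when any 1 library was left out. Cep55, which acts at the midbody where daughter cells separate, was not called (log2 fold change -0.44, edgeR adjusted p = 0.0459). Over all roles the call count without 1 library was between 9 and 14 members lower and always 1 higher.

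**Figure D3:**
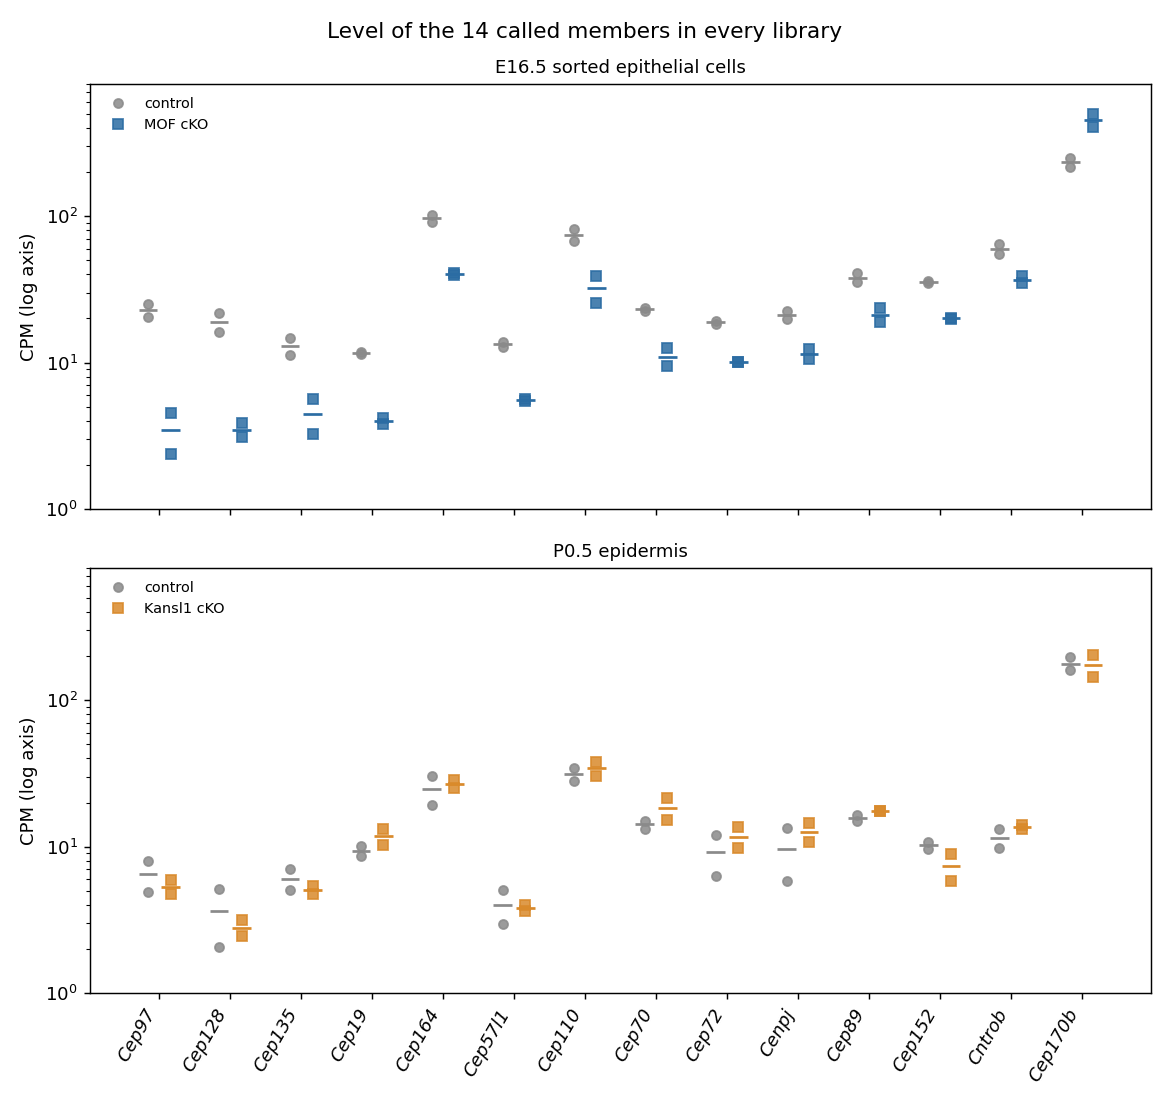
Level in CPM on a log axis of the 14 members called in MOF cKO, in every library, at E16.5 (upper panel) and P0.5 (lower panel). Points are libraries, horizontal bars are group means, and genes are ordered by their change in MOF cKO. In the upper panel the mutant points lie below both controls for the 13 genes called lower and above them for Cep170b, and in the lower panel the points of most genes mix.

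Between genes, levels per kilobase of exon (RPKM) in the E16.5 controls ran from 0.277 for Cep85l through a median of 5.33 to 16.6 for Pcm1 and 29.1 for Cep170b. The members called lower had a median level of 4.81 RPKM and the others of 5.56 RPKM. Over the 39 members the log2 fold change in MOF cKO and this level had a Spearman correlation of 0.40, and the log2 fold change and the length of the gene one of -0.19, where the points share the same 4 libraries. At P0.5 Cep128 was lowest at 0.257 RPKM, and Pcm1 and Cep170b were again highest at 11.2 and 22.2 RPKM. Overlapping coding genes on the opposite strand lie at 7 members, Cep250, Cep63, Cep85l, Ofd1, Poc1b, Poc5 and Sass6, and Galnt4 overlaps Poc1b on its own strand. None of these 7 was called, and their values are less certain because the strand setting of the counting is not given in the sources used here.

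Other centrosome genes were lower as well. Of 61 such centrosome genes 24 were called lower (39.3%) and 1 higher, with a median log2 fold change of -0.62. Among 34 further genes of the centriole and its satellites 14 were called lower, and among 27 genes of the pericentriolar material and spindle pole 10 were. Ccp110, the partner of Cep97 in the cap, had 770 and 732 raw counts in the controls and 115 and 127 in MOF cKO (log2 fold change -2.21, edgeR adjusted p = 0.000402). Ttbk2, the kinase that Cep164 recruits and that removes this cap, had 690 and 777 counts against 138 and 166 (log2 fold change -1.86, edgeR adjusted p = 0.000745). Among the called genes the satellite gene Ccdc66 had the largest fall, from 427 and 375 counts to 35 and 19 (log2 fold change -3.44), followed by Rttn, which is needed to build full-length centrioles, at -3.08. Bbs4, a BBSome subunit that is also found in satellites (-2.18), the augmin subunit Haus5 (-2.10) and the calcium-binding lumen protein Cetn2 (-1.90) were also called lower by edgeR. Pcnt, the pericentrin scaffold, fell less, by 0.70 on the log2 scale (edgeR adjusted p = 0.00737). The gene called higher was Plk2, a stress-responsive kinase with a reported part in duplication, at 2484 and 2332 counts against 7230 and 10100 (log2 fold change 2.26, edgeR adjusted p = 0.000127). Of the 7 Cep genes listed under earlier symbols 2 were called lower, Azi1, now Cep131, a satellite protein (log2 fold change -1.38, edgeR adjusted p = 0.000821), and Fopnl, now Cep20 (-0.87, 0.00473).

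**Figure D4:**
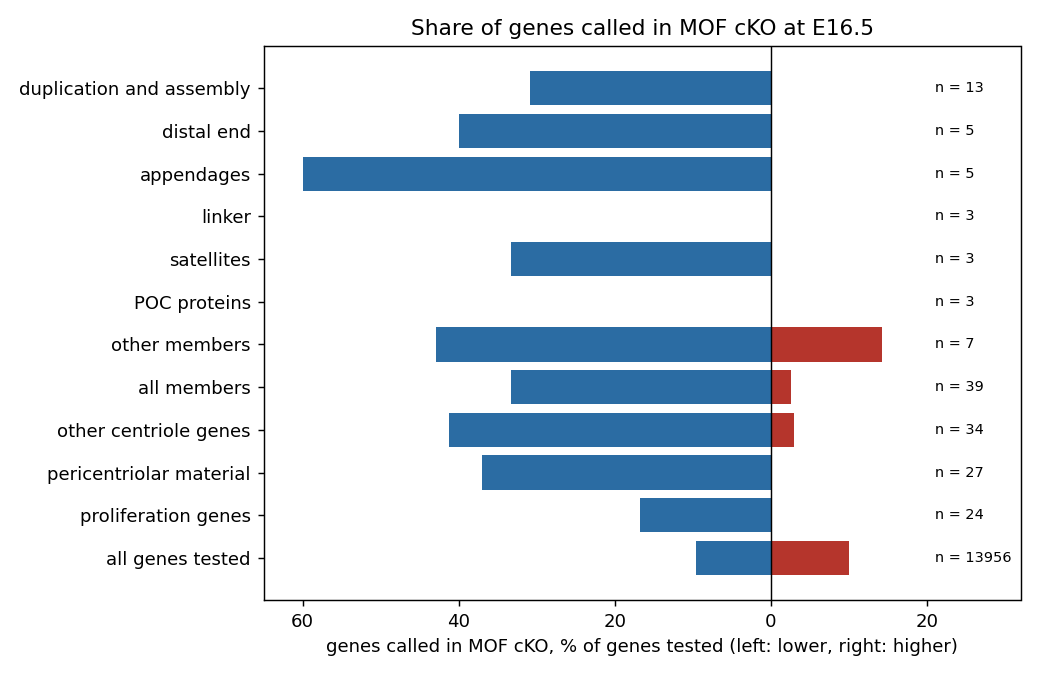
Share of the tested genes of each group that was called lower (left of 0) and higher (right of 0) in MOF cKO, in percent, with the number of genes tested. The 39 members reach 33.3% lower, the other centriole genes 41.2% and the pericentriolar material 37%, against 9.59% of all genes tested, while the linker and POC genes have none called.

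Other gene groups moved in the same libraries. Proliferation genes, which many centriole genes follow in the cell cycle, summed to 4064 and 3710 CPM in the controls and to 3176 and 3291 CPM in MOF cKO, and 4 of 24 were called lower, Ccnb2, Bub1, Mcm6 and Mybl2, with a median log2 fold change of -0.30 over the list. The members together summed to 1657 and 1600 CPM in the controls and to 1404 and 1412 CPM in MOF cKO. Cep170b, the 1 member called higher, held 217 and 248 CPM of the control sums and 408 and 498 CPM of the mutant sums. The sum therefore understates the fall of the other members, and the median log2 fold change over all members was -0.66. Of the 8 epithelial genes 1, Krt15, was called lower (log2 fold change -1.26, edgeR adjusted p = 0.000745) and 0 higher. Trp63 had a log2 fold change of -0.57 and was not called, and 4 of the 8 lay above 0. Of 7 suprabasal genes 5 were called higher, Krt1, Krt10, Ivl, Sbsn and Krtdap, and the list rose from 4227 and 3416 CPM to 9239 and 10130 CPM. Of 12 macrophage genes 7 were called higher, and the list went from 21.2 and 46.6 CPM to 106 and 140 CPM, with Lyz2 at 3 and 8 counts in the controls and 423 and 538 in the mutant. Tyrobp was at 0 counts in 1 control library and so was Fcgr1. Of 9 fibroblast genes none was called by edgeR. All 9 were under an unadjusted p of 0.05 by edgeR, as were 6820 of the 13956 genes tested. Of the 9, 7 lay above both controls in both mutant libraries and 2, Dcn and Postn, below, with a median log2 fold change of 1.03. Of all genes tested, 34.9% lay above and 37.7% below in this way. The list summed to 1779 and 2281 CPM against 2221 and 2672 CPM. All 5 endothelial genes had log2 fold changes above 0, and 1, Pecam1, was called higher, with sums of 6.16 and 7.22 CPM against 10.8 and 22.3 CPM. The part of these shifts in the change of the members was not tested. The multiciliated cell genes Deup1 (listed as Ccdc67) and Mcidas (listed as Mcin) had 0 counts in all 8 libraries, and the 5 genes of that list summed to at most 1.95 CPM.

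In Kansl1 cKO epidermis at P0.5 no member was called. The same test called 0 of 39 members lower and 0 higher, and 0% of the 13031 genes tested in either direction. DESeq2 also called 0 members. The study, which used DESeq2 at the same thresholds, did report genes lower and genes higher in this deletion. By edgeR 1 member, Pcm1, was under an unadjusted p of 0.05, as were 2045 of the 13031 genes tested. The log2 fold change was above 0 for 28 of 39 members, with a median of 0.18 over the members and 0.01 over all genes tested. Both mutant libraries lay above both controls for 12 members (26% of all genes tested) and below them for 3, Cep152, Cep63 and Poc5 (22.7% of all genes). Pcm1 was at 86.6 and 79.7 CPM in the controls and at 117 and 101 CPM in Kansl1 cKO (log2 fold change 0.39 ± 0.16, edgeR adjusted p = 0.315, the smallest of any member). The largest changes in size were those of Cep85, at 4.47 and 5.37 CPM against 7.07 and 6.96 CPM (log2 fold change 0.50), and of Cep152, at 9.63 and 10.8 CPM against 8.91 and 5.85 CPM (-0.46). Cep95, Cep55 and Cep128 followed with 0.43, 0.43 and -0.40, and for Cep95 and Cep128 the genotypes overlapped. Cep128 took the sign of 1 library, since its control libraries were at 2.06 and 5.17 CPM and its log2 fold change without control replicate 2 was 0.42.

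The members that fell in MOF cKO gave no common direction in Kansl1 cKO. Of the 13 called lower at E16.5, 8 were above 0 at P0.5 and 5 below. Cep97 was at 4.93 and 8.02 CPM in the P0.5 controls and at 5.96 and 4.74 CPM in Kansl1 cKO, and Cep164 at 19.3 and 30.1 CPM against 28.6 and 25.0 CPM, and in both the genotypes overlapped. Cep19 was at 8.59 and 10.1 CPM against 13.2 and 10.4 CPM, so that both mutant libraries lay above the controls. Proliferation genes summed to 1286 and 1664 CPM in the P0.5 controls and to 2073 and 1526 CPM in Kansl1 cKO, and melanocyte genes to 516 and 590 CPM against 1151 and 1232 CPM. Macrophage genes summed to 203 and 238 CPM against 298 and 325 CPM. In both Kansl1 cKO libraries 7 of 9 fibroblast genes lay below both controls, as did 22.7% of all genes tested. The median log2 fold change over the fibroblast list was -1.76. No gene of these lists was called, and their part in the levels of the members was not tested. Across the 39 members the log2 fold changes of the 2 experiments had a Pearson correlation of 0.38 and a Spearman correlation of 0.32, as a description of points that share their libraries within each experiment.

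The effects were tested against each other over all 8 libraries. The MOF effect minus the Kansl1 effect was below 0 for 36 of 39 members, with a median of -0.90 over the members and -0.07 over all genes tested. By edgeR 1 member was called lower, Cep19, where 1.17% of the 14565 genes tested were called lower, and 0 were called higher, where 1.76% of all genes were. At an unadjusted p under 0.05 it was 28 members lower and 1 higher, and 2388 lower and 2152 higher of the 14565 genes tested. DESeq2 called 5 members lower, where it called 3.64% of the 14282 genes it gave an adjusted p, and 1 higher, where it called 6.83%, and edgeR with the replicate number as a block called 0. The difference for Cep19 was -1.90 ± 0.32 on the log2 scale (edgeR adjusted p = 0.00874), and its call was lost whichever of the 8 libraries was left out, at adjusted p values from 0.0114 to 0.0357. At an adjusted p of 0.05 and the same fold threshold, edgeR called 13 members lower, where 6.76% of all genes passed, and 1, Cep170b, higher, where 7.04% did, and 8 of the 13 members called lower in MOF cKO were among them. Cep97 had a difference of -2.45 (edgeR adjusted p = 0.0158), Cep128 of -2.07 (0.0409), Cep70 of -1.48 (0.0195), Cep164 of -1.41 (0.0164) and Cep110 of -1.38 (0.0235). Without P0.5 control replicate 2 Cep164 was called in place of Cep19. Cep152 had a difference of only -0.39 (edgeR adjusted p = 0.422), since it lay below the controls in both deletions.

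Several members share the region of their start site with another coding gene, which allows both genes of a pair to be set side by side. In GENCODE M21 on GRCm38, 14 of the 39 members have a coding gene that starts on the opposite strand within 1000 bases, and 12 of those neighbours had enough counts to be tested. Of the 12 pairs the member was called lower in MOF cKO in 4, the neighbour in 1 and both in none, where 9.59% of all genes tested were called lower. The log2 fold change was below 0 for 9 of the 12 neighbours, and for 7109 of the 13956 genes tested. The starts of Cep19 and Pigx, an enzyme subunit of GPI anchor synthesis, lie 60 bases apart, and in MOF cKO the log2 fold change was -1.54 for Cep19 and 0.31 for Pigx (edgeR adjusted p = 0.37). The starts of Cep57l1 and the stress gene Sesn1 lie 64 bases apart, with -1.26 and -0.64 (0.012 for Sesn1). Cntrob had -0.70 and the trafficking gene Trappc1, 205 bases away, -0.27. The reverse held for Cep170, at -0.10, beside the centrosome gene Sdccag8, 593 bases away, which fell by 3.15 on the log2 scale (edgeR adjusted p = 0.00427). Parp4 beside Cenpj had -1.76 and was not called (edgeR adjusted p = 0.0376). Over the 12 pairs the median log2 fold change was -0.54 for the members and -0.32 for their neighbours, and the member lay below its neighbour in 7 of 12.

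**Figure D5:**
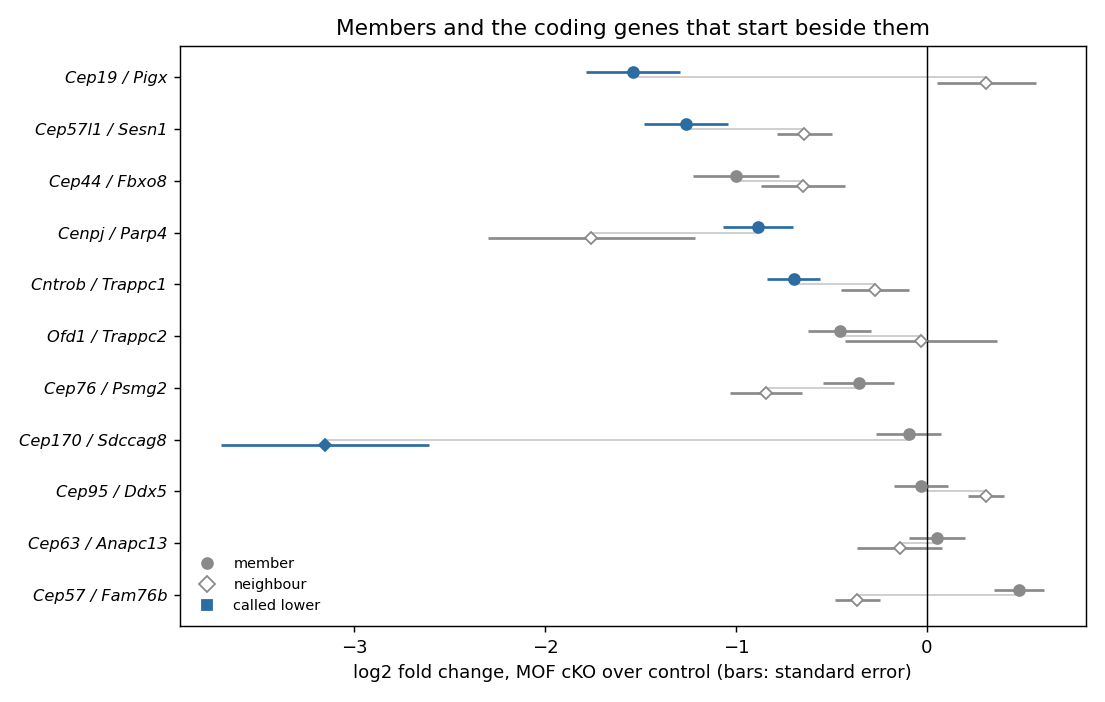
Log2 fold change in MOF cKO with its standard error of 11 members (circles) and of the coding gene that starts on the opposite strand within 1000 bases (diamonds), blue where called lower. The pair Cep19 and Pigx lies on opposite sides of 0, at -1.54 and 0.31, and Sdccag8 at -3.15 is the 1 neighbour called, beside Cep170 at -0.10.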

How the data were processed

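Polyadenylated RNA was sequenced from 8 libraries, 2 per group. The authors aligned paired reads to mm10 and deposited raw counts of reads per gene from HTSeq, without normalization. The study's methods name HISAT2 as the aligner and the submitters' processing notes TopHat2. Annotation and strand setting are not given in the sources used here. Between 21.1% and 26.0% of counts named no gene and were left out. Each experiment was fitted alone in edgeR 4.0.16 (R 4.3.3), with filterByExpr as the filter on low counts, TMM scaling, the quasi-likelihood test and Benjamini-Hochberg adjustment over all genes. A call needed more than a 1.5-fold change and an adjusted p not above 0.01, the thresholds of the study, which applied them in DESeq2. The difference between the effects was an interaction contrast over all 8 libraries. The script was tested on simulated counts. RPKM used the union of GENCODE M21 exons, to which 39 of 39 members matched.

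The members, lists, roles and tests were chosen with earlier results of these data known. Members were named with full values if called in MOF cKO, if among the 10 genes added by name, if among the 5 largest changes in Kansl1 cKO, or if next to a threshold, and from the other centrosome genes Pcnt and the 8 largest called changes. Cep57, Cep350 and the start site pairs were named after their values were seen. Replicates of each group differed by more than sampling noise. The labels do not say that they came from separate animals, so p-values measure the spread between these libraries. With 2 libraries a group, their number limits the precision. Alternatives were DESeq2 1.42.0, a likelihood ratio test, other scalings, filters and thresholds, 1 fit over all groups, the replicate number as a block and leaving out each library, where the lone library was assumed to vary like the other group. The values of 1 member are not reported here.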

Additional observations from a re-analysis of the deposited data

Results flagged for a closer look

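The change of Cep19 differed between the deletions by the test of the difference, close to the threshold. Its effect in MOF cKO at E16.5 minus its effect in Kansl1 cKO at P0.5 was -1.901 on the log2 scale (edgeR interaction contrast, adjusted p = 0.00874), with both MOF cKO libraries below and both Kansl1 cKO libraries above their controls. The adjusted p was 0.0409 in a fit blocked on replicate number, and between 0.0114 and 0.0357 when any 1 of the 8 libraries was left out, so that the threshold of 0.01 was missed in each of these fits. Stage, isolation and deleted gene cannot be told apart in this contrast.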

How the results depend on the processing

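In MOF cKO the number of members called lower was 13, and it was 20 with every gene of at least 1 count, 25 with library size alone as the scaling, and 20 with the replicate number as a block. It lay between 10 and 18 under the other settings that keep all libraries, and between 9 and 14 without 1 library. The 13 members were called under every setting that kept all libraries except 1 fit over all 4 groups, which called 9 of them. The median over the members was -0.63 with DESeq2, -0.63 with RLE factors, -0.72 with upper-quartile factors and -0.96 with library size alone, where the median of all genes was -0.32, and lay between -0.68 and -0.51 without 1 library. In Kansl1 cKO 0 members were called under every setting, including the block and a crossed pairing chosen after seeing the data, and Cep128, at -0.40, lay between -0.87 and 0.42 without 1 library, changing sign without control replicate 2. For the difference between the effects, members called lower were 5 with DESeq2, 6 with every gene of at least 1 count, 13 at an adjusted p of 0.05, 0 with the replicate block, and 0 to 1 without 1 library, and members called higher were 1, 1 and 1 under the first 3 of these settings. The cause of these shifts was not tested. Same-numbered libraries had correlated deviations of 0.27 at E16.5 and -0.296 at P0.5, and nothing says that a number marks a litter, so the replicate number was not taken as a pairing. Of the values of single members under these settings, 435 kept their direction and side of the threshold, 27 lost a call, 37 gained one and 1 changed sign.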
